A study of Drosophila melanogaster with 12 samples.

Results

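Transcripts of 7 neuronal transcription factor genes, acj6, pdm3, Ets65A, Bx, lov, chinmo and mamo, were followed in RNA recovered with the RNA-binding protein Pumilio (Pum) from heads of adult Drosophila melanogaster. They were 7 of the 10422 genes counted. The genes acj6, Ets65A and Bx were picked because their counts were enriched with Pum in these libraries, and pdm3, lov, chinmo and mamo were placed beside them as further neuronal factors. Comparisons of Pum xRIP with other groups are therefore given for acj6, Ets65A and Bx as values without a test. Their comparison of control xRIP with input rests on the same control and input libraries and is likewise given without a test. For the remaining 4 genes the test is given, although they too were chosen with earlier results of these data known.

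Pum belongs to the PUF family of proteins, which bind a short sequence, the Pumilio Response Element (PRE), mostly in 3′ untranslated regions (3′ UTRs), and which commonly lower the translation or the stability of the bound mRNA. The proteins encoded by the 7 genes act on DNA or on partners that do, and several of them set the identity of neurons. Acj6 and Pdm3 are POU-domain factors that guide the choice of odorant receptors and the wiring of olfactory neurons, and Ets65A is a factor of the ETS family. Bx encodes a LIM-only protein that binds the cofactor Chi and thereby opposes the LIM-homeodomain factor Apterous. Lov, Chinmo and Mamo carry a BTB domain, which mediates contacts between proteins. Chinmo sets the temporal identity of mushroom body neurons and Mamo maintains a later identity in them.

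RNA was obtained by xRIP-3′-seq, an immunopurification of cross-linked RNA with sequencing of 3′ ends, in which UV light joins proteins to the RNA they touch and each sequenced fragment marks the 3′ end of a recovered transcript. Pum xRIP (n = 4) used anti-Flag purification from adult pumFlag flies, in which the endogenous pum gene carries a Flag-HA tag, so no transgene or driver was involved. Control xRIP (n = 4) used the same purification from adult w1118 flies (written w118 in the labels), which lack the tag. Input (n = 4) was head homogenate before purification, in libraries named pum, w118, fne and rbp9, of which the last pair was taken as the inputs that the labels describe as mixed genotype. The labels call the genotype of all samples wt, and heads of males and females were used. Nothing in the labels says that replicates came from separate collections of flies, so p-values measure the spread between libraries, which may be partly technical.

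The libraries held 9563433 to 13726254 counts in input, 3050717 to 5051009 in Pum xRIP and 3342790 to 4485996 in control xRIP. Transcripts of the bait, pum, reached 1112 to 2420 CPM in Pum xRIP, 38.2 to 76.2 CPM in the inputs and 0 to 47.5 CPM in control xRIP, where CPM relates the count of a gene to the size of its library after TMM scaling. All 5 neuronal marker genes examined were detected in each group, and their summed level was 3692 to 4269 CPM in Pum xRIP, 1903 to 3011 CPM in the inputs and 344 to 588 CPM in control xRIP. The sum joins genes that differ in direction. The log2 fold change of Pum xRIP against input was 2.52 for brp, 1.24 for Syt1, 0.37 for elav, −0.29 for nSyb and −0.99 for Syn. The summed level of 4 muscle markers was lower in Pum xRIP than in either other group, at 128 to 348 CPM in Pum xRIP, 515 to 1106 CPM in the inputs and 733 to 1204 CPM in control xRIP. Against input, the log2 fold change was −10.2 for Act88F, −2.34 for Mhc, −1.88 for up and −0.01 for wupA. The summed level of 4 glial markers was 963 to 1722 CPM in Pum xRIP, 1393 to 1675 CPM in control xRIP, where repo was at 0, and 1504 to 2443 CPM in input. Against input, the log2 fold change of Pum xRIP was 1.47 for Eaat1, 0.39 for repo, −0.15 for moody and −1.67 for Gs2. The part of the cell types in the values of the 7 genes was not tested. Heads contain many cell types, and fewer cells of a type cannot be told apart from less RNA per cell.

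All 7 genes contained at least 1 PRE, searched as TGTANATA on the transcript strand, in their longest annotated 3′ UTR. The element was found in 2108 of 9646 genes with an annotated 3′ UTR (21.9%). The longest 3′ UTRs were 2492 nt in acj6, 721 nt in pdm3, 1801 nt in Ets65A, 1873 nt in Bx, 1128 nt in lov, 8533 nt in chinmo and 11537 nt in mamo. They held 3, 2, 2, 2, 1, 4 and 4 PREs in this order. Among the 200 genes closest in 3′ UTR length to each of them, the share with at least 1 PRE was 54.5%, 24.0%, 49.0%, 48.5%, 37.0%, 73.5% and 74.5%. At least as many PREs as in the gene itself were present in 13.5%, 7.0%, 18.5%, 18.5%, 37.0%, 16.0% and 16.5% of these genes. For comparison, the reversed sequence ATANATGT was found in 4 of the 7 genes, with 3 matches in acj6, 1 in Bx, 3 in chinmo and 4 in mamo. A match describes the sequence and does not show that Pum was bound there.

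The matches with 11 nt on either side are shown for acj6, Ets65A, Bx, chinmo and mamo, and their place relative to the annotated 3′ ends is given below. The 3′ ends recovered carry no positions in the data, so their place relative to a PRE was not tested. They are written 5′ to 3′ on the transcript strand with the PRE in capitals, and coordinates (dm6) are those of the PRE itself. Sites 2 and 3 of mamo, at chrX:13869239-13869246 and chrX:13869227-13869234, also read TGTATATA and are not printed with their flanks because they lie next to site 1.
acj6 site 1, chrX:15351473-15351480, minus strand: gcattagccacTGTATATAcgctatataca
acj6 site 2, chrX:15351427-15351434, minus strand: tttgattcgatTGTAAATAccgcagctata
acj6 site 3, chrX:15350785-15350792, minus strand: ttaactagactTGTACATAtaaaaaggaag
Ets65A site 1, chr3L:6123254-6123261, plus strand: gtggacgcattTGTAAATAgcaaaataaca
Ets65A site 2, chr3L:6123356-6123363, plus strand: aatttacgattTGTAAATAaatatttgcct
Bx site 1, chrX:18571530-18571537, plus strand: ccactacatacTGTACATAttttccttgta
Bx site 2, chrX:18571956-18571963, plus strand: gaactttgatgTGTAAATAttgagacattc
chinmo site 1, chr2L:1697979-1697986, plus strand: tccggttttttTGTACATAattttattaaa
chinmo site 2, chr2L:1698856-1698863, plus strand: agttcttggccTGTAAATAcatttattatt
chinmo site 3, chr2L:1700407-1700414, plus strand: tgacgttctcaTGTAAATAtgcgctgagca
chinmo site 4, chr2L:1701342-1701349, plus strand: cacacaattatTGTACATAaaataaattaa
mamo site 1, chrX:13869259-13869266, minus strand: acccacatataTGTATATAccgttgaatcc
mamo site 4, chrX:13862293-13862300, minus strand: cgaggacatacTGTACATAgataaaaaaaa

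All sites of acj6, Ets65A and chinmo, and 1 site each of Bx and mamo, lay downstream of the most proximal annotated 3′ end within the longest 3′ UTR. Isoforms that end there would lack these sites. Whether the isoforms share a stop codon was not checked, and annotated ends outside the longest 3′ UTR were left out. In acj6, the sites started 1251, 1297 and 1939 nt after the stop codon, with annotated ends at 749, 1583 and 2492 nt. In Ets65A, they started at 1142 and 1244 nt, and the ends were at 750 and 1801 nt. The Bx sites started at 594 and 1020 nt, to either side of the annotated end at 790 nt and before that at 1873 nt. In chinmo, all 4 sites, at 1830, 2707, 4258 and 5193 nt, followed the end at 1688 nt, and 3 of them followed that at 2468 nt. In mamo, by contrast, 3 sites lay at 288, 308 and 320 nt, before the most proximal annotated end within the longest 3′ UTR, at 338 nt, and site 4 lay at 7254 nt. The single match in lov started at 578 nt, after an annotated end at 496 nt, and the matches in pdm3 started at 14 and 31 nt of its only annotated 3′ UTR. None of the 7 genes had a PRE in the last 500 nt of the longest 3′ UTR.

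**Figure D1:**
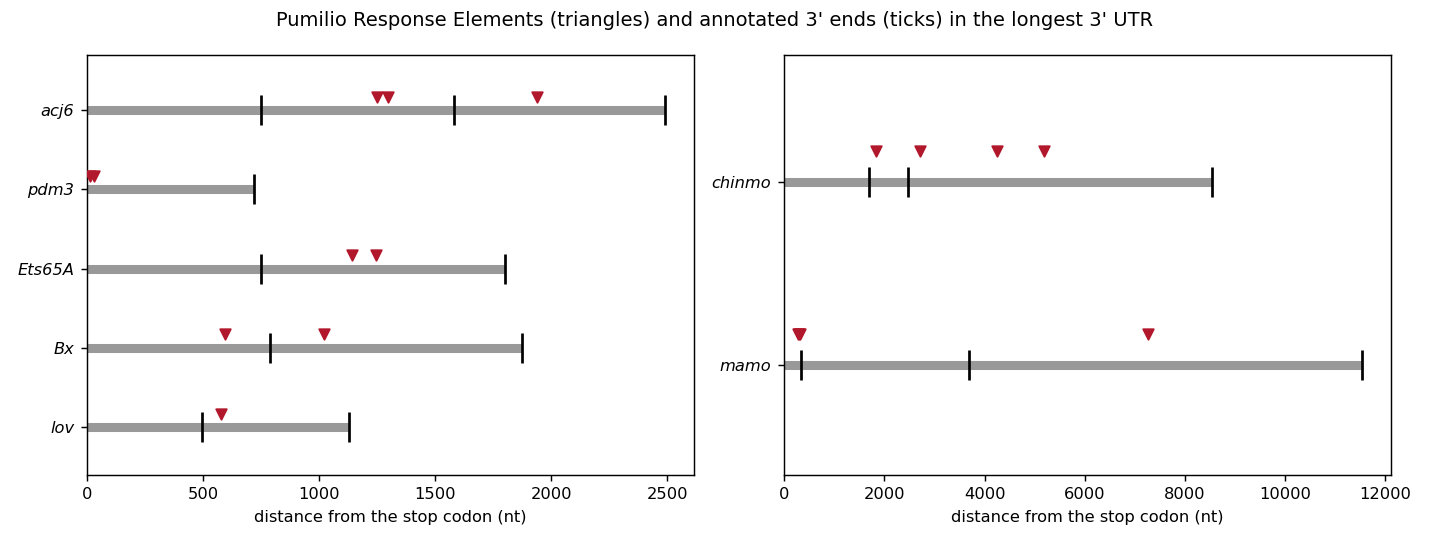
Position of PREs (red triangles, start of the match) and annotated 3′ ends (black ticks) along each gene's longest annotated 3′ UTR (grey bars), in nt from the stop codon. The 3 acj6 sites, both Ets65A sites and the 4 chinmo sites lie beyond the most proximal annotated end, whereas 3 of the 4 mamo sites (overlapping triangles) lie before it.

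Levels were then compared between groups, starting with the POU factors. The gene acj6 (FBgn0000028, chromosome X, 15350239 to 15379064, minus strand) had 426, 0, 86 and 479 counts in Pum xRIP replicates 1 to 4, 0 counts in all 4 control xRIP libraries, and 247, 186, 206 and 230 counts in the fne, pum, rbp9 and w118 inputs. Replicates 1 and 4 of Pum xRIP thus lay above all inputs on the CPM scale, at 127 and 117 CPM, whereas replicate 3 was at 15.9 CPM and replicate 2 had no count. Replicate 2 was the deepest Pum xRIP library but detected the fewest genes, 4100 against 4972 to 6110 in the others. Mean levels were 64.9 ± 66.2 CPM in Pum xRIP and 20.2 ± 3.61 CPM in input (SD, n = 4), with overlapping groups and a log2 fold change of 1.68 ± 1.68 (SE). Leaving out Pum xRIP replicate 2 or any other library gave values between 1.11 and 2.09.

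For pdm3 (FBgn0261588, chromosome 2R, 8327490 to 8396280, plus strand), Pum xRIP libraries held 314, 453, 169 and 15 counts. Control xRIP libraries held 250, 0, 81 and 143 counts, and the inputs 263, 130, 164 and 402. Of the 7 genes, only pdm3 had a higher mean level in control xRIP than in input. Mean levels were 50.7 ± 40.7 CPM in Pum xRIP, 20.6 ± 5.37 CPM in the inputs and 33.5 ± 28.7 CPM in control xRIP (SD, n = 4), and all groups overlapped. Relative to input, the log2 fold change of Pum xRIP was 1.29 ± 1.41 (SE, edgeR, adjusted p = 0.914). Relative to control xRIP it was 0.60 ± 1.39 (SE, edgeR, adjusted p = 0.897), so no difference was detected beyond the spread between libraries.

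Transcripts of the ETS factor gene Ets65A (FBgn0005658, chromosome 3L, 6097617 to 6123913, plus strand) were recovered with Pum in every replicate. Counts were 446, 1150, 966 and 843 in Pum xRIP, 0 in all 4 control xRIP libraries, and 246, 102, 126 and 279 in the inputs. Every Pum xRIP library was above every input, at 133 to 205 CPM against 12.1 to 21.96 CPM, an order that held for 5.57% of all tested genes. Mean levels in Pum xRIP and input were 176 ± 31.0 and 16.4 ± 4.68 CPM (SD, n = 4). Their log2 fold change of 3.42 ± 0.76 (SE) stayed between 3.22 and 3.59 without any single library. With a floor of 3 counts over the 4 control xRIP libraries, the level in Pum xRIP was at least 821-fold higher than in control xRIP. This floor covers counting error only, and without molecular identifiers copies of 1 molecule count as separate reads.

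The LIM-only gene Bx (FBgn0265598, chromosome X, 18515428 to 18572809, plus strand) had 634, 873, 1216 and 619 counts in Pum xRIP and 326, 485, 371 and 537 counts in the inputs. In control xRIP, 81 counts came from replicate 1 and 0 from each of the others. All Pum xRIP libraries, at 143 to 225 CPM, were above all inputs, at 29.1 to 61.6 CPM, as they were for 5.57% of all tested genes. Mean levels were 177 ± 37.8 CPM in Pum xRIP, 40.6 ± 14.4 CPM in the inputs and 5.58 ± 11.2 CPM in control xRIP (SD, n = 4). The log2 fold changes of Pum xRIP were 2.12 ± 1.46 (SE) against input and 4.98 ± 1.67 (SE) against control xRIP, and the second of these rested on the single control library with counts.

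Among the BTB factors, lov (FBgn0266129, chromosome 2R, 25085780 to 25139627, minus strand) was close to the limit of detection. It had 34, 0, 14 and 50 counts in Pum xRIP, 0 in all 4 control xRIP libraries, and 2, 0, 11 and 3 counts in the inputs. These counts were too low for the expression filter, so lov was not tested in the fit used for the other genes. Mean levels were 6.22 ± 5.85 CPM in Pum xRIP and 0.360 ± 0.475 CPM in input (SD, n = 4), with overlapping groups, since Pum xRIP replicate 2 had no count. Without the filter, the log2 fold change against input was 4.01 ± 2.24 (SE, adjusted p = 0.338, edgeR). DESeq2 on these groups alone gave 4.13 ± 1.63 (SE, adjusted p = 0.0459), in a fit that called 4.56% of genes higher. With 98 counts in Pum xRIP beside 16 in input, that p carries little weight as a test.

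Transcripts of chinmo (FBgn0086758, chromosome 2L, 1651258 to 1704682, plus strand) had a small spread in Pum xRIP and in input. Counts were 833, 1387, 1008 and 732 in Pum xRIP, 27, 63, 1 and 0 in control xRIP, and 706, 542, 664 and 927 in the inputs. The 3 groups did not overlap, with Pum xRIP at 178 to 248 CPM, input at 61.8 to 68.9 CPM and control xRIP at 0 to 17.6 CPM. Over all tested genes, 4.47% had every Pum xRIP library above every other library. Mean levels were 210 ± 33.2 CPM, 64.4 ± 3.10 CPM and 6.35 ± 8.27 CPM in this order (SD, n = 4).

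For mamo (FBgn0267033, chromosome X, 13846116 to 13990527, minus strand), Pum xRIP and input overlapped. Counts were 1215, 640, 929 and 1250 in Pum xRIP, 18, 95, 114 and 205 in control xRIP, and 1177, 1897, 1817 and 2145 in the inputs. On the CPM scale, replicates 1 and 4 of Pum xRIP were above all inputs, at 362 and 304 CPM, and replicate 2 was level with the lowest input, at 105 CPM. Mean levels were 236 ± 118.1 CPM in Pum xRIP, 166 ± 57.6 CPM in the inputs and 31.0 ± 21.3 CPM in control xRIP (SD, n = 4).

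**Figure D2:**
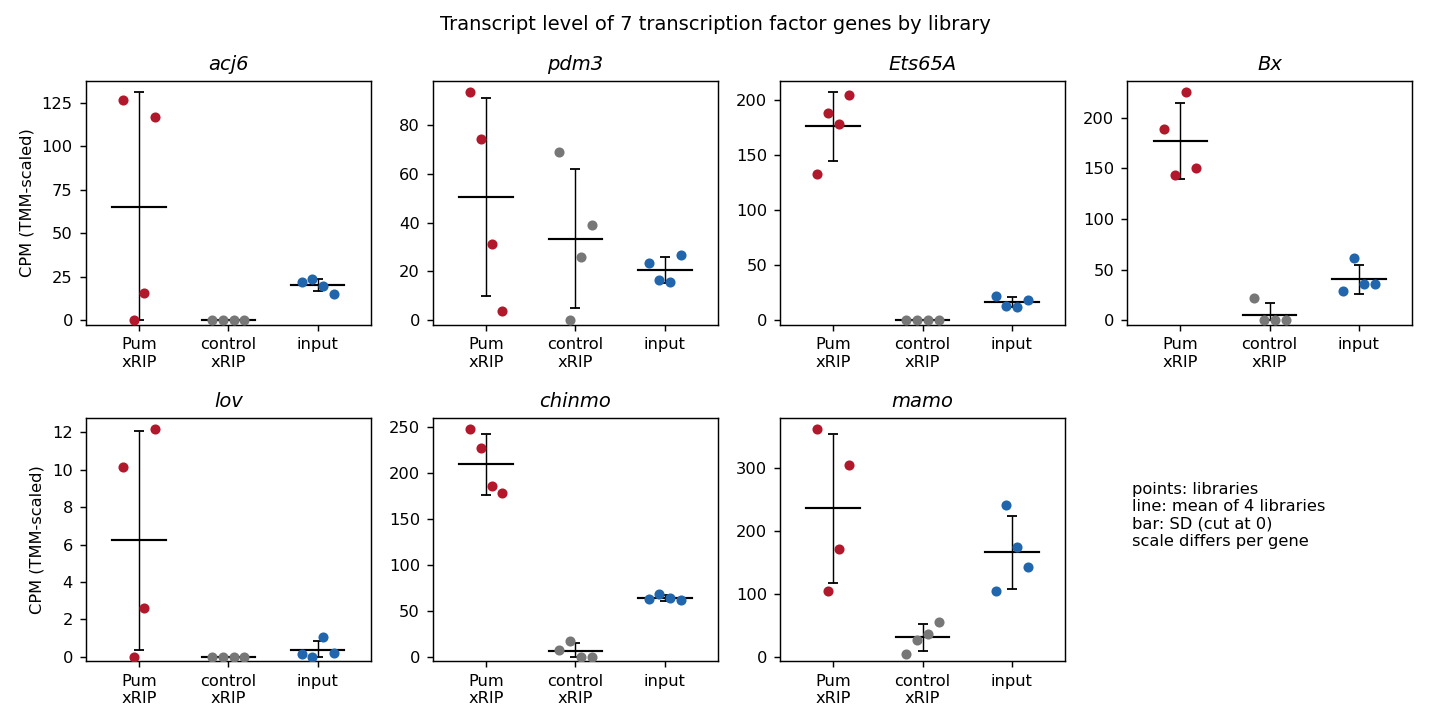
Level of each of the 7 genes (CPM after TMM scaling, linear axis from 0, a different scale per gene) in the 4 Pum xRIP (red), 4 control xRIP (grey) and 4 input libraries (blue), with the mean (line) and SD (bar, cut at 0). Pum xRIP libraries of Ets65A, Bx and chinmo lie above all other libraries, as for 4.47% of all tested genes, whereas those of acj6, pdm3, lov and mamo overlap with input.

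Pum xRIP was compared with input to ask whether transcripts of pdm3, lov, chinmo and mamo were enriched over their level in heads. None of the 3 that were tested was called, where a call required an adjusted p below 0.05 and an absolute log2 fold change above 1, and none had an unadjusted p below 0.05 (edgeR). Over all genes, 0.549% were called higher. The transcripts of chinmo were 3.26 times as abundant in Pum xRIP as in input, and the log2 fold change was 1.71 ± 1.07 (SE, edgeR, adjusted p = 0.569), although the groups did not overlap, an order that held for 5.57% of genes with Pum xRIP higher. That of mamo was 0.51 ± 0.64 (SE, adjusted p = 0.948, edgeR). All changes are to be read beside a median of −0.54 over the tested genes, which was not subtracted from them. This median became −0.08 if scaled by DESeq2 size factors and −0.37 if scaled by library totals. The call of chinmo changed with the groups in the fit, and the reason was not tested. Fitted without control xRIP, chinmo was called higher (1.67, adjusted p = 0.00339, edgeR, in a fit that called 3.49% of genes higher), as it was with DESeq2 (1.73, adjusted p = 1.86e-11, 4.56% of genes), whereas DESeq2 on all 3 groups called none of the 4 genes.

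Pum xRIP was also compared with control xRIP, to separate RNA recovered with Pum from RNA that the purification retains without the tag. This comparison shares the Pum xRIP libraries with the first. Transcripts of chinmo and mamo were higher in Pum xRIP, those of pdm3 were not called, and lov was below the expression filter. Over all genes, 7.72% were called higher, and in 9.95% all Pum xRIP libraries were above all control xRIP libraries, as they were for chinmo and mamo. The log2 fold change was 5.04 ± 1.24 for chinmo (SE, adjusted p = 0.0185, edgeR) and 2.92 ± 0.69 for mamo (SE, adjusted p = 0.0154, edgeR). Both calls held when any single library was left out, with adjusted p of 0.00890 to 0.0421 for chinmo and 0.0116 to 0.0466 for mamo (edgeR). The size of the change moved, from 4.83 to 6.53 for chinmo, with the highest value without control xRIP replicate 2, and from 2.64 to 3.54 for mamo, with the highest without control xRIP replicate 4 (log2 fold change). Without both inputs of mixed genotype, chinmo missed the threshold (5.06, adjusted p = 0.0543, edgeR). At the floor of 3 counts over the group, acj6 and lov were at least 302-fold and at least 29.0-fold higher in Pum xRIP than in control xRIP, although Pum xRIP replicate 2 had no count of either gene. In fits that included lov, it was called higher than in control xRIP with DESeq2 on all 3 groups (7.16 ± 2.43, SE, adjusted p = 0.0150, where 13.0% of genes were called higher), without Pum xRIP replicate 2 (adjusted p = 0.0211, edgeR) and without the pum input (adjusted p = 0.0408, edgeR). In the edgeR fits without Pum xRIP replicate 2 or the pum input, lov passed the filter only through Pum xRIP, where it was high. Those calls therefore carry no weight as tests. The call with DESeq2 rested on 98 counts in Pum xRIP beside 16 in input and 0 in control xRIP, and carries little weight. The gene lov was not called in the edgeR fit without the filter (adjusted p = 0.0881) or with DESeq2 on these groups alone (adjusted p = 0.123). Nor was it called without any single control xRIP library (adjusted p of 0.0634 to 0.0660, edgeR). The same held without the fne, rbp9 or w118 input (adjusted p of 0.0552 to 0.0695, edgeR) and without both inputs of mixed genotype (adjusted p = 0.129, edgeR).

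Control xRIP was compared with input to measure how much of each transcript the purification retained without the tag. Of the 3 genes tested, transcripts of mamo were lower in control xRIP, and those of pdm3 and chinmo were not called. Over all genes, 10.7% were called lower, and in 31.8% all control xRIP libraries were below all inputs. With the floor of 3 counts over the group, Ets65A was at least 76.5-fold lower in control xRIP and acj6 at least 94.2-fold lower, values given as a description. For mamo the log2 fold change was −2.42 ± 0.68 (SE, adjusted p = 0.0336, edgeR). The values were −3.34 ± 1.14 for chinmo (adjusted p = 0.0658) and 0.70 ± 1.39 for pdm3 (adjusted p = 0.899; SE, edgeR), and −2.85 ± 1.51 for Bx (SE), given without a test. All control xRIP libraries were below all inputs for acj6, Ets65A, Bx, chinmo and mamo.

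The adjusted p of mamo rose above 0.05 without the pum, rbp9 or w118 input (0.0578 to 0.0723, edgeR), whereas its log2 fold change stayed between −2.41 and −2.49 in these fits. The adjusted p also rose above 0.05 without the expression filter (−2.47, adjusted p = 0.0666, edgeR) and without both inputs of mixed genotype (−2.66, adjusted p = 0.111, edgeR). Without control xRIP replicate 4, its log2 fold change was −3.12 (adjusted p = 0.0177, edgeR). Without control xRIP replicate 1, the value of pdm3 turned to −0.16. Without control xRIP replicate 2 or 4, chinmo was called lower (−4.91 and −3.21, adjusted p = 0.0232 and 0.0359, edgeR).

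Counts per gene are sums over clusters of neighbouring 3′ ends, and the clusters of the 7 genes were compared to see which 3′ ends were recovered with Pum. The clusters carry numbers but no positions. Among genes divided into at least 4 clusters, the most used cluster bore the highest number in 574 of 2245 plus-strand genes and the lowest in 167, while on the minus strand it bore the highest in 165 of 2308 genes and the lowest in 523. The numbers were therefore read as increasing along the chromosome, and each statement on proximal or distal ends rests on this reading.

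In Bx, the recovered 3′ ends differed from those of the inputs. Cluster 14 contained 614, 401, 627 and 301 counts in Pum xRIP, but 0, 58, 8 and 9 counts in the fne, pum, rbp9 and w118 inputs. It took 45.9% to 96.8% of the Bx counts of a Pum xRIP library and 0% to 11.96% of those of an input. Cluster 9, which would be the more proximal, led in every input, with 226, 380, 270 and 283 counts, and had 20, 436, 130 and 161 counts in Pum xRIP. The 81 control counts of Bx all fell in cluster 15, which held 9.10% of the Bx counts in Pum xRIP and 19.8% in input. Because Bx was picked on this comparison, no test is attached to the difference.

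The counts of Ets65A in Pum xRIP were concentrated in cluster 6, the highest-numbered cluster with counts and thus the most distal by the same reading. It held 309, 1150, 858 and 429 counts, and was the single source of the Ets65A counts of Pum xRIP replicate 2. Its share was 50.9% to 100% in Pum xRIP and 34.3% to 40.5% in input, where clusters 2, 3 and 6 were used side by side, with 227, 179 and 287 counts over the 4 inputs. In acj6, clusters 2, 5 and 8 held most counts in either group. Cluster 5 led in 3 of the 4 inputs and in Pum xRIP replicates 1 and 3, and cluster 2 led in the rbp9 input and in Pum xRIP replicate 4.

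In chinmo, the same cluster led in every library of both groups. Cluster 24 led in all 4 Pum xRIP libraries, with 42.4% to 53.6% of the counts, and in all 4 inputs, with 40.0% to 45.6%. Clusters 28 and 42 varied more between libraries. Cluster 28 held 25.3%, 20.4%, 19.3% and 0% of the counts in Pum xRIP replicates 1 to 4 and 4.80% to 25.8% in an input, and cluster 42 held 0%, 16.6%, 15.8% and 44.5% in Pum xRIP and 20.5% to 32.7% in an input. By contrast, pdm3 had another leading cluster in each Pum xRIP replicate, namely clusters 4, 6, 3 and 7, although cluster 4 led in all inputs and held all 474 counts of control xRIP. Transcripts of mamo likewise ended in many places, with counts in 30 to 48 clusters of an input and in 14, 7, 15 and 15 clusters of the Pum xRIP replicates, where clusters 22, 26, 65 and 48 led. The few counts of lov in Pum xRIP came from cluster 3 in replicate 1, cluster 1 in replicate 3 and cluster 4 in replicate 4, apart from 4 counts of replicate 1 in cluster 1.

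**Figure D3:**
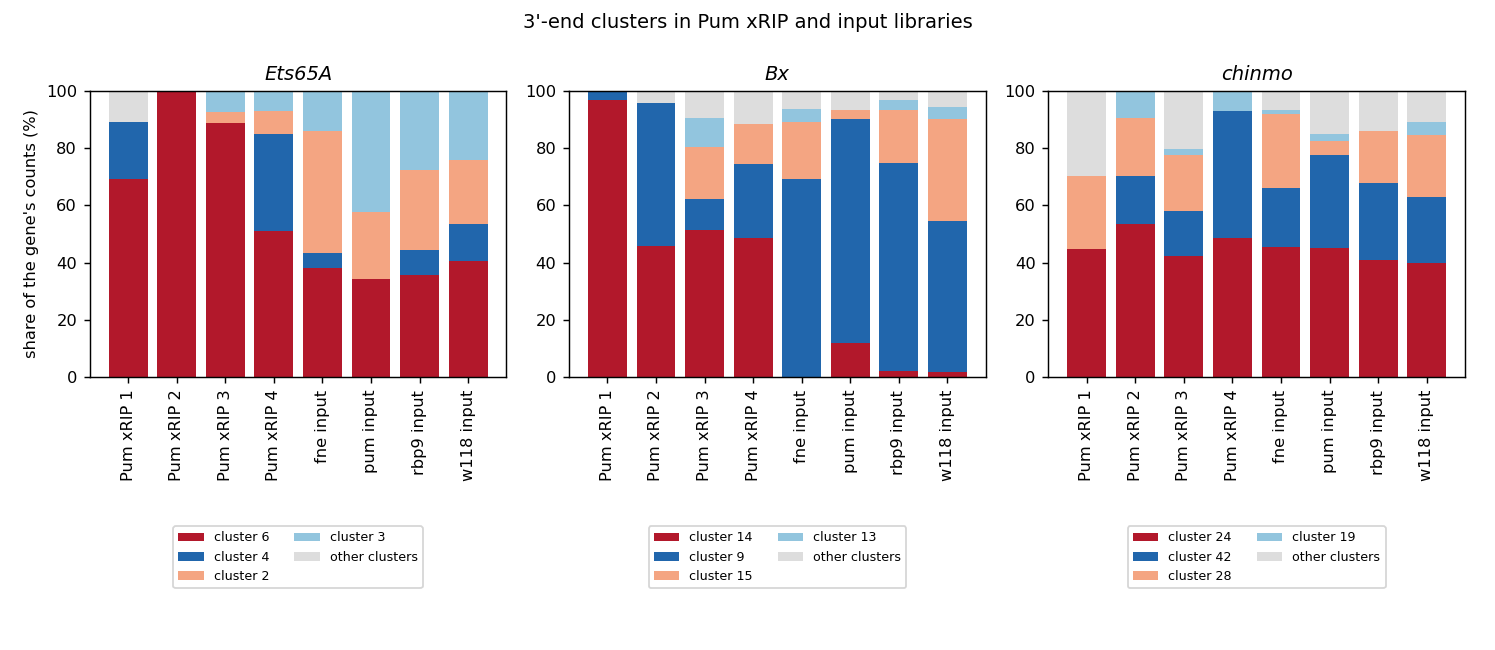
Share of the counts of Ets65A, Bx and chinmo (% of the gene's counts, vertical axis) that fell in each 3′-end cluster, for 4 Pum xRIP and 4 input libraries (control xRIP, with few or no counts, is not drawn). Cluster 14 of Bx takes 45.9% to 96.8% in Pum xRIP and 0% to 11.96% in input, cluster 6 of Ets65A 50.9% to 100% and 34.3% to 40.5%, and cluster 24 of chinmo 42.4% to 53.6% and 40.0% to 45.6%.

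A change in the use of 3′ ends between Pum xRIP and input was tested with diffSpliceDGE of edgeR for pdm3, chinmo and mamo, of which none was called and none had an unadjusted p below 0.05. Over all genes with several tested clusters, 0.0323% were called. In a fit without control xRIP, which called 24.1% of genes, mamo was called (adjusted p = 0.0295, edgeR) and pdm3 and chinmo were not. The p of pdm3 and mamo moved with the libraries in the fit. It was 0.798 for pdm3 and 0.936 for mamo with all libraries. When any single xRIP library was left out, the unadjusted p of pdm3 was 0.00279 to 0.0234 (adjusted p of 0.0539 to 0.132, edgeR) and that of mamo 0.00831 to 0.0350 (adjusted p of 0.0553 to 0.132, edgeR). Without the rbp9 input, the unadjusted p was 0.0122 for pdm3 and 0.0449 for mamo (adjusted p of 0.212 and 0.215, edgeR). Single clusters of these 3 genes gave 0 calls against input among 18 tested, with 0 at an unadjusted p below 0.05 (edgeR), and over all clusters 0.211% were called higher. Against control xRIP, 4 of the 18 were higher, clusters 19 and 28 of chinmo and clusters 41 and 48 of mamo, where 8.91% of all clusters were called higher (edgeR). Cluster 19 of chinmo and cluster 41 of mamo passed the expression filter only with Pum xRIP libraries, the group called higher. The calls of these clusters therefore carry no weight as tests. In control xRIP against input, 9 of the 18 clusters were lower, where 25.6% of all clusters were called lower (edgeR), and none of the 3 genes was called for a change in end use, where 1.03% of all genes were. The unadjusted p of that change was below 0.05 for pdm3 and mamo, with adjusted p of 0.122 and 0.155 (diffSpliceDGE of edgeR).

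Some counts may be shared with neighbouring genes. On the same strand, acj6 overlaps Pp1-13C, pdm3 overlaps CG11635 and CG8701, Bx overlaps HisRS and CG15047, and lov overlaps CG43106. Genes on the opposite strand overlap pdm3, Ets65A, Bx, lov and mamo. The part of these genes in the counts was not tested, and whether reads were counted by strand is not given in the sources used here.

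The genes whose levels most resembled each of the 7 across the 12 libraries were looked up. Likeness was measured as the root mean square difference of log2(CPM + 1), each gene centred on its mean, where a smaller value means a closer match. For Ets65A the closest gene was dpr5, which encodes a cell-surface protein of the immunoglobulin superfamily, with a difference of 0.35, where the SD of Ets65A itself was 3.19. It was followed by CG32206 and CG32204, at 0.43 and 0.49. For Bx, whose SD was 2.999, the closest were Hexim, an inhibitor of transcription elongation, at 0.31, the homeodomain factor gene ct at 0.32 and oaf at 0.45. The gene ct reached 266 CPM in Pum xRIP, 8.48 CPM in control xRIP and 63.4 CPM in the inputs, means that lay beside those of Bx in order.

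For acj6, with an SD of 2.78, dpr2 of the same family as dpr5 was closest, at 0.39, before CG12877 at 0.52 and CG8366 at 0.59. For chinmo, with an SD of 2.76, Sin3A, which encodes a scaffold of histone deacetylase complexes, was at 0.58, the calcium sensor gene Frq1 at 0.61 and the gap junction gene shakB at 0.68. For mamo, with an SD of 1.70, they were mtd at 0.49, the homeodomain factor gene pros at 0.63 and wrd, a regulatory subunit of protein phosphatase 2A, at 0.63. The matches of pdm3 and lov were less close relative to their own SD of 1.83 and 1.39, namely CG9410 at 0.64, the TNF receptor gene wgn at 0.67 and CG31676 at 0.75 for pdm3, and CG14102 at 0.64, the kinase gene Akt at 0.71 and mxc at 0.89 for lov.

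Other genes of the same families and of neuronal identity were examined in 6 lists with 59 genes beside the 7, of which 44 were tested. The lists were chosen with earlier results of these data known, so their counts and medians only describe the listed genes. Against input, 1 was higher and 1 was lower in Pum xRIP, and the median log2 fold change was 1.07, where that of all tested genes was −0.54 (0.549% called higher and 4.87% called lower). The gene called higher was nej, which encodes the histone acetyltransferase CBP, with 546 ± 87.6 CPM in Pum xRIP, at most 17.6 CPM in control xRIP and 130 CPM in the inputs on average. Its log2 fold change was 2.07 ± 0.50 (SE, adjusted p = 0.0244, edgeR), and no listed gene was called higher without Pum xRIP replicate 4 or without the fne, rbp9 or w118 input. The gene called lower was ey, a Pax6 factor of eye development, which had no count in any xRIP library and 7.76 CPM in input on average (adjusted p = 0.0143, edgeR). The number called higher ranged from 0 to 15 between fits, with 9 in edgeR and 15 in DESeq2 on these groups alone.

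In the families of the 7 genes, no other gene was called against input. The lists of POU and ETS factors held vvl, at 0.69 ± 1.91, and a range from Ets98B, at −1.42 ± 1.75, to the repressor aop, at 0.97 ± 1.12 (log2 fold change, SE). LIM factors and cofactors ranged from the Chi-binding cofactor Ssdp, at 0.23 ± 1.40, to the motor neuron factor Lim3, at 2.25 ± 1.65. BTB factors ranged from ab, at −2.89 ± 1.46, to psq, at 2.79 ± 0.90 (log2 fold change, SE), for which the adjusted p was 0.0898 (edgeR). Against control xRIP, which shares the Pum xRIP libraries, 16 of the 44 genes were higher, namely 3 of 7 LIM genes, 3 of 10 BTB genes, 7 of 15 other neuronal factors and 3 of 7 coregulators, where 7.72% of all genes were called higher. The median was 4.14, or 4.01 with genes without counts in a group set to the floor, beside 0 or 0.05 over all tested genes. In control xRIP against input, 12 of the 44 were lower, where 10.7% of all genes were called lower, with a median of −2.88 beside −0.83 over all genes. Because the lists were chosen with earlier results known, these counts and medians are a description.

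**Figure D4:**
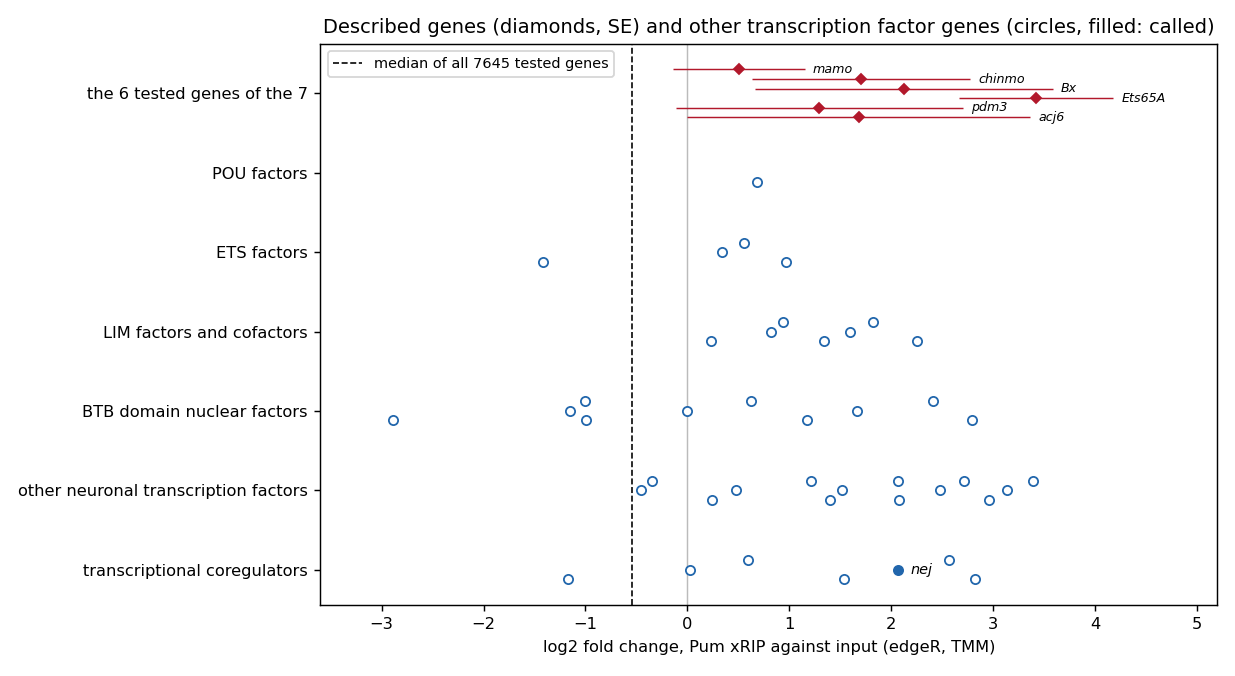
Log2 fold change of Pum xRIP against input (horizontal axis, edgeR with TMM) for the 6 tested genes of the 7 (diamonds, with SE) and for other listed transcription factor genes (circles, filled where called), with the median of all tested genes as a dashed line at −0.54. The 6 genes lie between 0.51 and 3.42, nej is the filled circle, and ey, without a count in Pum xRIP, is not drawn.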

How the data were processed

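The authors trimmed reads of QuantSeq 3′ REV libraries with fastp, mapped them with STAR 2.6.1b to dm6 without spliced alignments, masked signal next to genomic runs of A, grouped nearby 3′ ends as clusters and counted the reads of each. The authors deposited raw counts per gene (10422 genes) and per cluster (56392 clusters), with no normalization and no molecular identifiers. All 12 libraries were used, grouped by the labels. The fne and rbp9 columns were assigned to input as a group, since the labels do not tell which mixed genotype sample each is.

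Counts were tested in R 4.3.3 with edgeR 4.0.16 (quasi-likelihood F test, TMM, default expression filter by group, 1 fit over the 3 groups, Benjamini-Hochberg adjustment over 7645 genes or 14235 clusters). The SE of a log2 fold change was its size over the square root of F. The scripts were tested on simulated data, where recovery was required only at a spread capped to a low value. Recovery at the spread of these libraries is not given. Calls required an adjusted p under 0.05 and a log2 fold change of more than 1 in either direction. DESeq2 1.42.0, other scalings, no filter, only the groups compared, and left-out libraries served as alternatives. No library resembled another of its group as closely as a repeat count would (chi-square per degree of freedom of 70.96 or more). PREs were searched with Python 3.11.15 in 3′ UTRs of Ensembl release 115 with the RefSeq sequence of the same assembly. The 7 genes and the lists were chosen with earlier results of these data known. The text names all 7 genes, their 3 closest matches, pum, and in each list the genes called against input, up to 4, or else those with the highest and the lowest fold change. Photoreceptor and fat body marker genes, also examined, summed to 14541 to 18107 and 2525 to 4448 CPM in Pum xRIP, 7047 to 8589 and 1011 to 2112 CPM in control xRIP, and 21219 to 26774 and 3351 to 9462 CPM in input. These sums too join genes that differ in direction. Log2 fold changes of Pum xRIP against input were 1.36 for norpA, −0.75 for ninaE, −1.17 for Arr2 and −2.44 for trp. Among the fat body markers they were 0.44 for to, −0.08 for FASN1, −0.65 for Lsp2 and −0.88 for Yp1.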

Additional observations from a re-analysis of the deposited data

Results flagged for a closer look

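Levels of the 7 genes were screened with Dixon's criterion in 18 groups of 4 libraries with differing values, and 1 library stood apart, where chance gives about 0.9. Transcripts of Bx were at 22.3 CPM in control xRIP replicate 1 and at 0 CPM in the other 3 control xRIP libraries.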

How the results depend on the processing

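Of 346 values recomputed for the 6 tested genes, 345 kept their direction. The exception was pdm3 in control xRIP against input, at −0.16 without control xRIP replicate 1 and up to 0.84 without another library. Of pdm3, lov, chinmo and mamo, the number called against input rose from 0 to 1 with edgeR and 2 with DESeq2 on only these groups. The number called against control xRIP fell from 2 to 1 without the inputs of mixed genotype. It rose to 3, with lov, with DESeq2 on all 3 groups, without Pum xRIP replicate 2 and without the pum input. In the last 2 of these fits lov passed the filter only through Pum xRIP, so its calls there carry no weight. In control xRIP against input, mamo was not called without the low-count filter, without the inputs of mixed genotype, or without the pum, rbp9 or w118 input. There chinmo was called lower with DESeq2 on all 3 groups and without control xRIP replicate 2 or 4. Over all genes, 10.7% were called lower in the main fit. Of the other listed genes, 1 was higher than in input, but 3 with DESeq2 size factors, 2 with library totals, 0 without the filter, 9 with DESeq2, 9 with edgeR on only these groups, 15 with DESeq2 on only these groups, 0 without the inputs of mixed genotype and 0 to 5 without single libraries. Against control xRIP, 16 were higher, but 28 with DESeq2, 8 with edgeR on only these groups and 8 without the inputs of mixed genotype. A change in end use was called in 1 gene, mamo, with only the groups compared. A PRE was present in all 7 genes, in 0 within the last 500 nt, and the reversed sequence in 4. The cause of these changes was not tested.

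The labels do not say whether replicate numbers 1 to 4 pair Pum xRIP with control xRIP libraries. Correlations of deviations were 0.0031 to 0.025 between libraries of the same number and −0.031 to 0.032 between the others. Such small values give no sign of a pairing but cannot exclude a shared collection. With a replicate block on the 8 xRIP libraries, 1 of the 4 genes (chinmo, not mamo, adjusted p = 0.0840, edgeR) and 9 of the other listed genes were higher in Pum xRIP.

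Depth limits the values of lov, which had 0 to 11 counts in an input and 0 to 50 in a Pum xRIP library. Depth was not lower in Pum xRIP replicate 2, which had no count of acj6 or lov, than in the other Pum xRIP libraries. That library nevertheless detected the fewest genes of them, 4100 against 4972 to 6110. Whether this bears on its missing counts was not tested.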
